A study of Mus musculus with 3 samples.

Results

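The 9 genes described here encode parts of the epithelial basement membrane: Lama3, Lama5, Lamb3, Col4a1, Col4a2, Col7a1, Col17a1, Agrn and Nid1. They were chosen by name, by their part in the basement membrane, from the 20605 genes of the count matrix, with earlier results of these data known. All 9 passed the filter on low counts. The question put to them was whether tumour cells embedded in Matrigel, a laminin-rich gel extracted from a mouse sarcoma, hold less messenger RNA for basement membrane than cells of the same tumours in gels of collagen I, the chief fibrillar collagen of connective tissue. Only transcripts were measured, so nothing here speaks of secreted or assembled protein.

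The cells came from primary mammary tumours of C3(1)-Tag mice, in which the C3(1) promoter drives the SV40 large T antigen in mammary epithelium, and so every tumour group carries that oncogene. The mice were of the FVB strain, 25 to 30 weeks old with tumours of 20 mm, and the cells were not passaged. Cells of the same 4 mice were grown in collagen I or in Matrigel, both in a defined medium with insulin, transferrin, selenium and 2.5 nM FGF2, and were taken on day 0 (12 h after plating), day 3 and day 5. The 4T1 line, an established mouse mammary carcinoma line, was grown in RPMI with serum and added to each pool. Gels were opened with 2 mg/ml collagenase for collagen and with 10 mM EDTA on ice for Matrigel, so the matrix and the release method cannot be told apart. Each day was 1 pooled 10x Genomics 3' library, so day and pool cannot be told apart either, whereas both matrices of a day shared a pool. A lipid-anchored barcode (MULTI-seq) told the cells of each mouse and matrix apart within a pool. The cell annotation names its first time point D1, which was taken as day 0 because the other pools match by name.

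A basement membrane is a thin sheet of matrix under epithelia. Laminins, trimers of an alpha, a beta and a gamma chain, and type IV collagen form its networks, nidogen links them, and heparan sulfate proteoglycans such as agrin bind laminin and the cell surface. The laminin that holds the Lama3 and Lamb3 chains anchors epithelia at hemidesmosomes, together with the transmembrane collagen XVII (Col17a1), and collagen VII (Col7a1) forms the anchoring fibrils that tie the sheet to the stroma. In the mammary gland the basal, myoepithelial cells lie on this sheet, and invading carcinoma cells cross it.

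Upstream sequence is shown for the 4 genes on which the results below turn and for which an entry was at hand: Col7a1 and Agrn, called higher in collagen, Lamb3, called with the mouse as a block, and Col17a1, which differed most between keratin classes of cells. Of the 9 genes, 8 had a RefSeq promoter entry (GRCm38.p6). Each stretch is the first 250 bases of its entry, written 5′ to 3′ on the gene's own strand. It was cut before any exon that GENCODE annotates, which left 249 bases for Lamb3 and 198 for Col17a1. The stretches of Col7a1, Agrn and Col17a1 end at the base before the GENCODE span of the gene. The distance of the cut stretches to the RefSeq start of transcription is not given here. It lies at chr9:108953336-108953585 (plus strand) for Col7a1, chr4:156197489-156197738 (minus) for Agrn, chr1:193301744-193301992 (plus) for Lamb3 and chr19:47692095-47692292 (minus) for Col17a1. The Lamb3 stretch lies within the span that GENCODE gives the gene, downstream of its first annotated base. Capitals mark matches, on either strand, to 4 short motifs. These are TGANTCA, the AP-1 site, and CAGAC, the core of the element bound by SMAD proteins. The others are GGGCGG, the GC box bound by Sp family factors, and TATAAA, the TATA box.
Col7a1: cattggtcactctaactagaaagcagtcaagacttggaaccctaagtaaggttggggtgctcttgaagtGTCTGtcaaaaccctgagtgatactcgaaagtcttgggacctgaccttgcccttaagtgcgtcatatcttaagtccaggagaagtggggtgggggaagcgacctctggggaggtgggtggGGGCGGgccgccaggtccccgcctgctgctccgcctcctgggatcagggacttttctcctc
Agrn: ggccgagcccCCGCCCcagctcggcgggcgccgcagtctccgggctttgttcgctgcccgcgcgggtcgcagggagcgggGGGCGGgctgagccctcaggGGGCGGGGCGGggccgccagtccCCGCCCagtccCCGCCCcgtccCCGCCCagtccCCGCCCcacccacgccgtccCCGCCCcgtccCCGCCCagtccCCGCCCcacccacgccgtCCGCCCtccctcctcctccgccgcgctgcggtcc
Lamb3: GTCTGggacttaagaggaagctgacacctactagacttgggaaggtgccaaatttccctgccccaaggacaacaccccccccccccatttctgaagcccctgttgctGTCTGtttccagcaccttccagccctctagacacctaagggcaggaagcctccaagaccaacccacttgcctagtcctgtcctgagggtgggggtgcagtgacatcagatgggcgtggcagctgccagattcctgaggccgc
Col17a1: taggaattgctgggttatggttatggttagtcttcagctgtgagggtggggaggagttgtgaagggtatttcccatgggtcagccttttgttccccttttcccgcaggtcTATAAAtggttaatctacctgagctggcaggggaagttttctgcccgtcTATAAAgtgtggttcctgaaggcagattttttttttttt
The Agrn stretch held 12 matches to GGGCGG, a pair of which overlap, and Col7a1 held 1, where 32.7% of the 32851 RefSeq promoters held at least 1 over the same 250 bases. The letters CAGAC occurred 1 time in Col7a1 (42.2% of promoters held them) and 2 times in Lamb3 (42.1% over 249 bases). The letters TATAAA occurred 2 times in Col17a1, against a share of 9.08% of promoters over its 198 bases. TGANTCA was in none of the 4 stretches, and 6.75% of promoters held it over 250 bases. A match is a description of these letters only.

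Unique molecular identifier (UMI) counts of tumour cells were summed per mouse, matrix and day, and the mouse is the replicate. There were 21 sums of 38 to 1148 cells with 1831436 to 46657709 UMIs, and a level is given in CPM, the count per 1000000 UMIs of the sum's scaled total. Day 5 had 3 collagen sums and 2 Matrigel sums (51 and 38 cells), because mouse 4 gave no cells and mouse 1 gave 13 Matrigel cells, under the minimum of 20. In all, 337 cells in clusters with markers of macrophages, fibroblasts or T and NK cells were left out. The tumour epithelial marker list (8 of 8 genes detected) summed to 4692 to 6657 CPM in collagen and 6649 to 8251 CPM in Matrigel on day 0. On day 3 it summed to 4851 to 7495 CPM in collagen and 4688 to 7152 CPM in Matrigel. The day 5 sums were 4140 to 7659 CPM in collagen and 4767 to 5333 CPM in Matrigel. Mouse 4 stood apart on day 0, with median UMIs per cell of 4378 in collagen and 8595 in Matrigel, against 13858 to 19396 in collagen and 17570 to 22160 in Matrigel for the other mice. Among cells barcoded as mouse tumour, 56 fell in the cluster of the 4T1 line, 26 of 939 in collagen and 16 of 1701 in Matrigel on day 0. These 56 cells stayed in the sums, and values without them are given where they matter. Differences are log2 ratios of collagen over Matrigel with their standard error (SE), and a gene was called at an adjusted p under 0.05 over the 13184 genes tested. Each difference was fitted without the mouse and again with the mouse as a block, since the same animals gave both matrices.

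Col7a1 was higher in collagen on all 3 days and Agrn on day 0, and no member was called higher in Matrigel on any day. With the mouse as a block, Lama3 and Lamb3 were also higher in collagen on days 3 and 5. Col4a1, Col4a2, Col17a1, Lama5 and Nid1 were not called in either fit on any day. On day 0, 2 of 9 members were called, where 7.03% of all genes were, and with the block 2 of 9 where 24.3% of all genes were, a share close to the members' own. On day 3, 1 of 9 was called against 0.205% of all genes, and with the block 3 of 9 against 4.37%. On day 5, 1 of 9 was called against 0.455%, and with the block 3 of 9 against 6.28%. The fitted difference was positive for 8 of 9 members on each day, with medians of 0.81, 0.43 and 1.12 (log2) on days 0, 3 and 5, against 0.008, -0.011 and 0 over all genes tested. On day 0 the differences of Col4a1 and Col4a2 turned to -0.12 and -0.16 without the cells of the 4T1 cluster. Lama3 and Lamb3 correlated over the sums, as did Col4a1 and Col4a2, so the signs are not independent. A sum does not tell more cells with a transcript from more transcript per cell, and shares of cells are given further on.

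**Figure D1:**
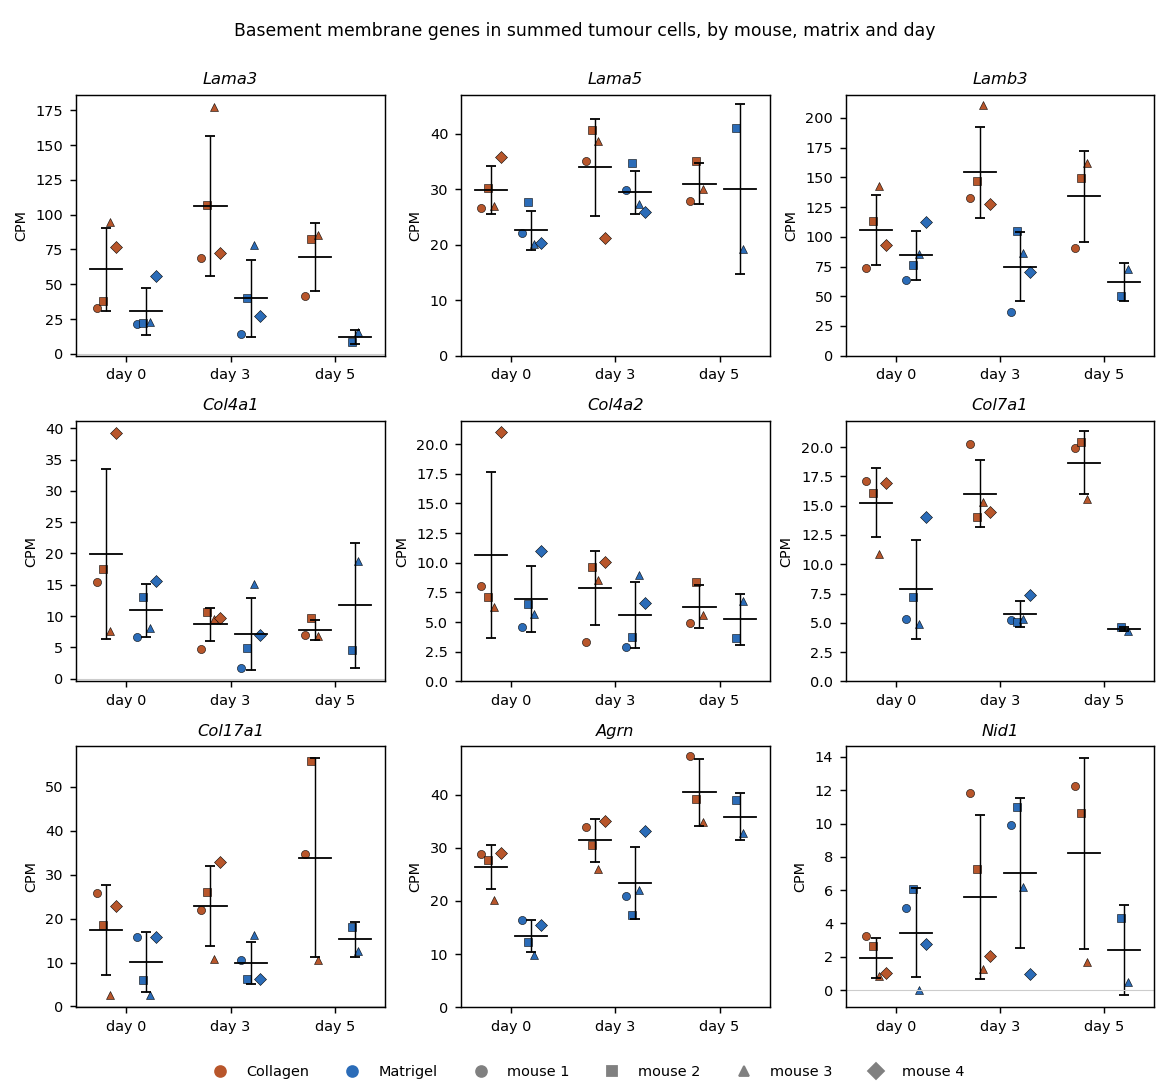
Level of each member in CPM (vertical axes, linear) in every sum, by day and matrix, with collagen left of Matrigel. Each marker shape is 1 mouse and bars show the mean ± SD. Col7a1 lies at 14.0 to 20.3 CPM in collagen and at 5.03 to 7.36 CPM in Matrigel on day 3, with no overlap, while Lama5 overlaps on each day.

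Lama3, on chromosome 18, encodes the alpha chain of the hemidesmosomal laminin. On day 0 Lama3 stood at 33.0, 38.3, 94.5 and 76.9 CPM in collagen and at 21.5, 22.0, 23.1 and 55.6 CPM in Matrigel (mice 1 to 4). On day 3 it stood at 69.0, 107, 177 and 72.4 CPM in collagen and at 14.0, 39.9, 78.3 and 27.2 CPM in Matrigel. On day 5 it stood at 41.5, 82.3 and 85.6 CPM in collagen (mice 1 to 3) and at 8.62 and 15.4 CPM in Matrigel (mice 2 and 3). The groups overlapped on days 0 and 3 through mouse 4 and mouse 3 of Matrigel, and did not overlap on day 5. Within each mouse Lama3 was higher in collagen in 4 of 4, 4 of 4 and 2 of 2 mice, by 1.38 to 4.10 times on day 0, 2.27 to 4.92 times on day 3 and 5.55 to 9.55 times on day 5. Without the mouse term none of these differences was called: the log2 values were 0.98, 1.40 and 2.58, with adjusted p of 0.212, 0.274 and 0.113 (edgeR). With the mouse as a block the difference was 1.50 ± 0.33 (SE) on day 3 and 2.87 ± 0.54 on day 5, with adjusted p of 0.0161 and 0.00632 (edgeR). The blocked call of day 3 ended without mouse 1 (1.36, adjusted p = 0.139) or mouse 2 (1.53, adjusted p = 0.076), and that of day 5 without mouse 2 (2.62, adjusted p = 0.106) or mouse 3 (3.14, adjusted p = 0.056), all edgeR.

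Lamb3, the beta chain of the same laminin (ENSMUSG00000026639, GRCm38 chromosome 1, 193207699 to 193343878), followed Lama3 on days 3 and 5. It stood at 73.5, 113, 143 and 93.5 CPM in collagen and at 63.7, 76.6, 85.2 and 112 CPM in Matrigel on day 0, and these groups overlapped. On day 3 it stood at 133, 147, 211 and 127 CPM in collagen, above all 4 Matrigel values of 36.8, 105, 86.8 and 70.7 CPM. On day 5 the collagen sums held 90.4, 149 and 163 CPM and the Matrigel sums 50.5 and 73.3 CPM, again without overlap. The log2 difference was 1.03 ± 0.28 on day 3 (adjusted p = 0.155, edgeR) and 1.07 ± 0.18 with the block (adjusted p = 0.00401, edgeR). On day 5 it was 1.13 ± 0.38 (adjusted p = 0.213, edgeR) and 1.33 ± 0.25 with the block (adjusted p = 0.00682, edgeR). The blocked call of day 3 ended without mouse 1 (0.88, adjusted p = 0.0689), and that of day 5 without mouse 2 (1.15, adjusted p = 0.0906) or mouse 3 (1.54, adjusted p = 0.0957), all edgeR.

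Across the 21 sums the log2 levels of Lama3 and Lamb3 had a Pearson r of 0.89, and 0.84 after the group means were removed. These points share libraries, mice and scaling, so the values are descriptions. Lama5 (chromosome 2, 180176373 to 180225859, minus strand), the alpha chain of other epithelial laminins, did not follow. It stood at 26.5 to 35.9 CPM in collagen and 20.1 to 27.6 CPM in Matrigel on day 0, at 21.3 to 40.7 CPM in collagen and 25.9 to 34.7 CPM in Matrigel on day 3, and at 27.8 to 35.0 CPM in collagen and 19.3 and 40.9 CPM in Matrigel on day 5. Its groups overlapped on each day. The Lama5 difference was 0.40 ± 0.21, 0.22 ± 0.21 and 0.02 ± 0.28 (log2), with adjusted p of 0.262, 0.847 and 0.996 (edgeR). Its r with Lama3 and with Lamb3 after removal of group means was 0.02 and 0.01.

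Col7a1 (ENSMUSG00000025650, chromosome 9, 108953586 to 108984875, plus strand), the anchoring fibril collagen whose upstream stretch is shown above, was the only member called in the fit without the mouse on all 3 days. On day 0 it stood at 17.1, 16.1, 10.9 and 16.9 CPM in collagen and at 5.35, 7.18, 4.89 and 14.0 CPM in Matrigel. On day 3 it stood at 20.3, 14.0, 15.4 and 14.5 CPM in collagen and at 5.26, 5.03, 5.29 and 7.36 CPM in Matrigel. On day 5 it stood at 20.0, 20.5 and 15.6 CPM in collagen and at 4.62 and 4.34 CPM in Matrigel. The groups overlapped on day 0 through mouse 4 of Matrigel alone and did not overlap on days 3 and 5. The difference was 0.96 ± 0.27, 1.45 ± 0.28 and 2.05 ± 0.41 on the log2 scale on days 0, 3 and 5 (adjusted p = 0.037, 0.0275 and 0.0348, edgeR), which is 1.95, 2.73 and 4.14 times. With the block it was 1.02 ± 0.22, 1.53 ± 0.23 and 1.99 ± 0.36 (adjusted p = 0.00352, 0.0014 and 0.00505, edgeR). It had this direction in 4 of 4, 4 of 4 and 2 of 2 mice.

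The calls of Col7a1 without the mouse term ended when mouse 1, 2 or 3 was left out, with log2 differences of 0.75, 0.90 and 0.92 for day 0. For day 3 these values were 1.30, 1.45 and 1.43, and for day 5 they were 2.01, 2.04 and 2.15. With the block they held without any single mouse on days 0 and 3, and on day 5 ended without mouse 2 (1.86, adjusted p = 0.137, edgeR) or mouse 3 (2.11, adjusted p = 0.101, edgeR), each of which leaves 1 Matrigel sum. A further cluster was led by Krt5, a basal keratin gene, by the contractile genes Acta2 and Tagln, and by Il17b and Postn. It held 38 of 939 collagen cells and 6 of 1701 Matrigel cells on day 0. It held 6.22% of collagen cells and 1.46% of Matrigel cells on day 3, and 7.61% and 13.7% on day 5. Without this cluster the difference in Col7a1 was 0.78 on day 0 (adjusted p = 0.0945, edgeR) and 1.33 on day 3 (adjusted p = 0.0647, edgeR), and with the block 0.84 and 1.41 (adjusted p = 0.0106 and 0.00228, edgeR). The day 5 value was 2.08 (adjusted p = 0.0432, edgeR). The summed level of 8 fibroblast markers also stood higher in the collagen sums on days 3 and 5, at 10.1 to 27.0 CPM in collagen and 2.92 to 8.48 CPM in Matrigel on day 3, and at 15.02 to 31.2 CPM in collagen and 5.30 and 6.16 CPM in Matrigel on day 5. On day 0 it was 7.93 to 16.3 CPM in collagen and 3.93 to 18.1 CPM in Matrigel. Of these markers, Dpt was at 0 in all collagen sums of day 3, and Col3a1 and Dpt in all collagen sums of day 0 and both Matrigel sums of day 5, and Lum in all Matrigel sums of day 0. None of the 4 markers tested was called on any day without the mouse term, and 1 was called higher in collagen on day 3 with the block. In the 81 fibroblast-like cells that were left out, the same list summed to 5357 CPM and Col7a1 stood at 26.9 CPM.

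Col17a1 (chromosome 19, 47646344 to 47692094, minus strand), the transmembrane collagen of hemidesmosomes, varied widely between mice. On day 0 it stood at 25.9, 18.5, 2.72 and 22.8 CPM in collagen and 15.8, 6.08, 2.56 and 15.8 CPM in Matrigel. On day 3 it stood at 22.0, 26.0, 10.9 and 32.8 CPM in collagen and 10.5, 6.15, 16.3 and 6.30 CPM in Matrigel, and on day 5 at 34.8, 56.0 and 10.7 CPM in collagen and 18.2 and 12.5 CPM in Matrigel. Mouse 3 was the lowest collagen sum on each day and the groups overlapped on each day. The difference was 0.81 ± 0.61, 1.24 ± 0.62 and 1.12 ± 0.81 (log2), with adjusted p of 0.460, 0.534 and 0.652 (edgeR).

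**Figure D2:**
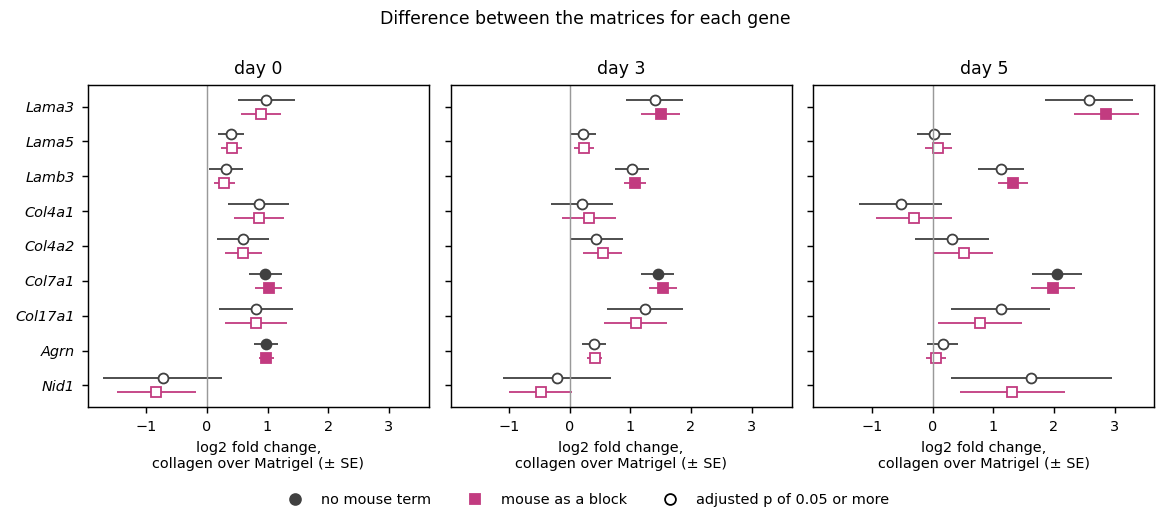
Log2 difference of collagen over Matrigel (horizontal axis) for each member on each day, with bars of ± 1 SE. Dark circles are the fit without the mouse and pink squares the fit with the mouse as a block, and filled symbols have an adjusted p under 0.05. Col7a1 is filled in both fits on each day, Agrn on day 0, and Lama3 and Lamb3 with the block on days 3 and 5.

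Col4a1 and Col4a2 encode the chains of the common type IV collagen network. They lie head to head on chromosome 8 (11198423 to 11312826 on the minus strand and 11312805 to 11449287 on the plus strand) and overlap by 22 bases, and the sources used here do not give whether counting used the strand. On day 0 Col4a1 stood at 15.4, 17.5, 7.62 and 39.3 CPM in collagen and at 6.66, 13.1, 8.15 and 15.7 CPM in Matrigel. Col4a2 stood at 8.08, 7.14, 6.26 and 21.1 CPM in collagen and at 4.59, 6.49, 5.70 and 11.0 CPM in Matrigel on that day. Mouse 4 was the highest of both chains in both matrices, and the groups overlapped. The differences were 0.86 ± 0.50 and 0.59 ± 0.43 (log2, adjusted p = 0.318 and 0.443, edgeR). On day 3 Col4a1 stood at 4.77 to 10.6 CPM in collagen and 1.75 to 15.2 CPM in Matrigel, and on day 5 at 6.73 to 9.62 CPM in collagen and 4.62 and 18.8 CPM in Matrigel. Its differences there were 0.20 ± 0.52 and -0.53 ± 0.68, and those of Col4a2 0.44 ± 0.44 and 0.32 ± 0.61, with adjusted p between 0.844 and 0.983 (edgeR).

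The day 0 values of type IV collagen moved with the few mouse-labelled cells that clustered with the 4T1 line. In that line Col4a1 stood at 90.6, 74.0 and 78.8 CPM on days 0, 3 and 5 and Col4a2 at 39.5, 40.8 and 34.5 CPM, each from 1 sum with no replicate. In mouse 4 in collagen on day 0, 11 of 229 cells lay in the 4T1 cluster. Without the cells of that cluster, Col4a1 on day 0 stood at 6.91, 6.47, 5.51 and 6.51 CPM in collagen and at 5.13, 5.28, 7.76 and 9.50 CPM in Matrigel. Mouse 4 then no longer stood above the others in collagen, and the matrix difference was -0.12 ± 0.46 for Col4a1 (adjusted p = 0.922, edgeR) and -0.16 for Col4a2. The sign of the day 0 difference in both chains therefore depended on whether these cells were kept. Across the 21 sums Col4a1 and Col4a2 had r = 0.87 (log2 levels), and 0.88 after removal of group means.

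**Figure D3:**
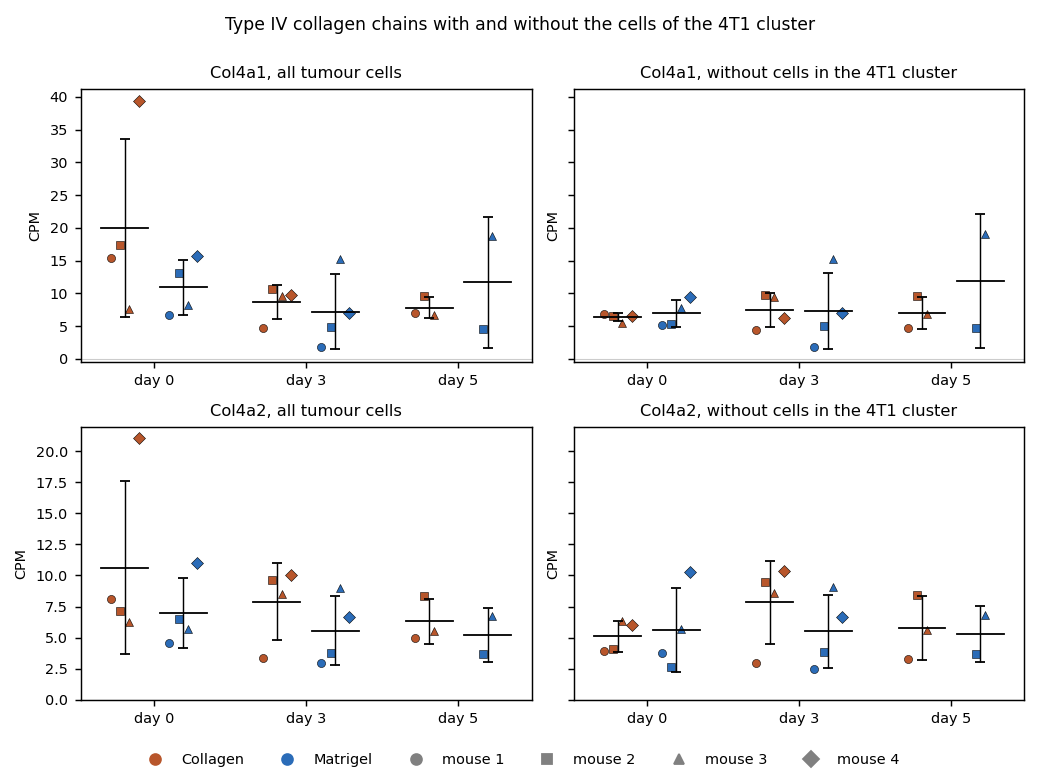
Level of Col4a1 and Col4a2 in CPM (vertical axes, linear) in every sum, by day with collagen left of Matrigel, with all tumour cells and with those in the 4T1 cluster left out. Bars show the mean ± SD. The collagen value of mouse 4 on day 0 is 39.3 CPM for Col4a1 with these cells and 6.51 CPM without them.

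Nid1 (chromosome 13, 13437551 to 13512269, plus strand) encodes nidogen, which joins laminin to type IV collagen, and it was the most sparsely counted member, with 0 to 325 counts a sum. On day 0 it stood at 3.25, 2.64, 0.817 and 1.04 CPM in collagen and 4.92, 6.08, 0 and 2.78 CPM in Matrigel, where the 0 of mouse 3 allows up to 0.339 CPM. On day 3 it stood at 11.8, 7.28, 1.28 and 2.07 CPM in collagen and 9.93, 11.0, 6.22 and 0.994 CPM in Matrigel, and on day 5 at 12.3, 10.7 and 1.67 CPM in collagen and 4.31 and 0.482 CPM in Matrigel. Mice 1 and 2 were the higher ones in collagen on all 3 days, and the groups overlapped on each day. The differences of -0.73 ± 0.98, -0.21 ± 0.89 and 1.63 ± 1.33 (log2) had adjusted p of 0.709, 0.992 and 0.707 (edgeR), and a difference within these errors was not detectable.

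Agrn (ENSMUSG00000041936, chromosome 4, 156165290 to 156197488, minus strand), which encodes the proteoglycan agrin, was higher in collagen on day 0. It stood at 28.8, 27.8, 20.1 and 29.0 CPM in collagen, above all 4 Matrigel values of 16.4, 12.3, 9.78 and 15.4 CPM. On day 3 it stood at 34.0, 30.5, 26.0 and 35.2 CPM in collagen and 21.0, 17.3, 22.1 and 33.1 CPM in Matrigel, and on day 5 at 47.3, 39.2 and 34.9 CPM in collagen and 39.1 and 32.8 CPM in Matrigel. The groups overlapped on days 3 and 5. The day 0 difference was 0.97 ± 0.20 (log2, adjusted p = 0.00851, edgeR), 1.96 times, and with the block 0.98 ± 0.13 (adjusted p = 0.000105, edgeR). It was 0.40 ± 0.20 on day 3 and 0.16 ± 0.26 on day 5 (adjusted p = 0.528 and 0.882, edgeR), and within mice 1.06 to 1.76 times on day 3 and 1.00 and 1.07 times on day 5. The call of day 0 ended without mouse 1 (1.03, adjusted p = 0.0698, edgeR) or mouse 2 (0.91, adjusted p = 0.124, edgeR), and with the block it held without any single mouse. Mitochondrial transcripts also differed on day 0, with medians per cell of 3.12% to 4.19% in collagen and 1.72% to 2.97% in Matrigel over the 4 mice. The part of release and cell state in the Agrn difference was not tested.

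Added over the 9 members, the level was 232 to 336 CPM in collagen and 160 to 263 CPM in Matrigel on day 0, 325 to 498 CPM in collagen and 132 to 267 CPM in Matrigel on day 3, and 286 to 411 CPM in collagen and 175 and 184 CPM in Matrigel on day 5. The sum was higher in collagen without overlap on days 3 and 5 and overlapped on day 0. Lama3 and Lamb3 made up 46.0% to 75.9% of it in collagen and 52.9% to 67.9% in Matrigel on day 0, and 60.5% to 77.9% in collagen and 38.5% to 63.6% in Matrigel on day 3. On day 5 they made up 46.1% to 70.2% in collagen and 33.9% and 48.3% in Matrigel. Counts from the 3' end are not divided by transcript length here, and shares between genes describe molecules counted.

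The change of the matrix difference over time was tested as the later difference minus that of day 0. Without the mouse term edgeR called 0 of 9 members from day 0 to day 3, where 0.0303% of all genes were called, and 0 of 9 from day 0 to day 5, where 1.19% were. An unadjusted p under 0.05 was found for 0 and 2 members, and DESeq2 called 0 in both. With the block edgeR called 0 of 9 against 5.34% by day 3 (2 at an unadjusted p under 0.05), and 3 of 9 against 13.7% by day 5. The collagen over Matrigel difference grew by 1.98 ± 0.63 in Lama3 and 1.04 ± 0.31 in Lamb3 (log2, adjusted p = 0.0467 and 0.0343, edgeR), whereas that of Agrn fell by 0.93 ± 0.21 (adjusted p = 0.0093, edgeR). Without the block these values were 1.60, 0.80 and -0.81 (adjusted p = 0.363, 0.424 and 0.22, edgeR). The blocked call of Lama3 ended without mouse 1, 2 or 3 (1.92, 1.72 and 2.56), that of Lamb3 without any 1 of the 4 mice (0.85 to 1.40), and that of Agrn without mouse 2 or 3 (-0.81 and -0.92). The differences of day 0 and day 5 in Col7a1 were not shown to differ, with a change of 0.97 (log2) in the blocked fit.

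Within Matrigel, Agrn rose between day 0 and day 3, and it was the only member called in either culture without the mouse term. Its mean was 13.5 ± 3.02 CPM on day 0 and 23.4 ± 6.81 CPM on day 3 in Matrigel (SD, n = 4 mice each), then 35.9 ± 4.46 CPM on day 5 (n = 2). In collagen it was 26.4 ± 4.22, 31.4 ± 4.11 and 40.5 ± 6.28 CPM on days 0, 3 and 5 (n = 4, 4 and 3). The rise in Matrigel by day 3 was 0.82 ± 0.20 (log2, adjusted p = 0.00385, edgeR), and 0.83 ± 0.13 with the block (adjusted p = 4.99e-05, edgeR), and it held without any single mouse in both fits. That is 1 of 9 members where 39.1% of all genes were called, and with the block 1 of 9 where 54.8% were, both below the share of all genes. In collagen over the same days edgeR called 0 of 9 members (1 at an unadjusted p under 0.05, and DESeq2 called 0), where 19.6% of all genes were called, and with the block 3 of 9 where 37.7% were: Lamb3 rose by 0.57 ± 0.18, Lama3 rose by 0.87 ± 0.32 and Col4a1 fell by 1.13 ± 0.41 (adjusted p = 0.0173, 0.0387 and 0.0385, edgeR). The call of Lama3 ended without mouse 1, 2 or 3 (0.82, 0.69 and 0.88) and that of Lamb3 without mouse 1 or 3 (0.49 and 0.60). The change of Col4a1 turned to 0.25 without the cells of the 4T1 cluster (0.16 with the block), of which there were 26 of 939 collagen cells on day 0 and 10 of 2477 on day 3.

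Between days 3 and 5, edgeR without the mouse term called 0 of 9 members in collagen, where 1.15% of all genes were called, and 0 of 9 in Matrigel, where 2.5% were. An unadjusted p under 0.05 was found for 0 members in collagen and 2 in Matrigel, and DESeq2 called 0 in both. With the block, Agrn rose in collagen by 0.45 ± 0.13 (log2, adjusted p = 0.0306, edgeR), 1 of 9 against 10.5% of all genes. In Matrigel 2 of 9 were called against 12.7%: Agrn rose by 0.81 ± 0.17 and Lama3 fell by 1.91 ± 0.54 (adjusted p = 0.00548 and 0.0267, edgeR). These rest on 2 Matrigel sums on day 5. The Matrigel values ended without mouse 2 (0.65 and -1.78) or mouse 3 (0.88 and -1.78), and the collagen value of Agrn without mouse 1, 2 or 3 (0.43, 0.48 and 0.45). On days 0, 3 and 5 the mean of Lama3 was 60.7, 106 and 69.8 CPM in collagen and 30.5, 39.8 and 12.0 CPM in Matrigel, so the mean was highest on day 3 in both cultures.

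Cells of each sum were split by the basal keratin Krt14, a marker of myoepithelial cells, into those with and without a Krt14 UMI after thinning to 2000 UMIs. Krt14 was counted in every cluster of the tumour cells, so the split does not set myoepithelial cells apart. The Krt5-led cluster stood at 7819 CPM of Krt14 and 2864 of Acta2, and another cluster at 2202 and 2.21 CPM. The part of the Krt5-led cluster in the differences below was not tested. Over 19 sums with at least 20 cells of each class, 3 of 9 members were called, all higher in Krt14-positive cells, where 16.4% of all 10819 genes tested were called. Col17a1 averaged 31.2 ± 23.6 CPM in Krt14-positive cells and 4.94 ± 4.39 CPM in Krt14-negative cells (SD, n = 19), and it was higher in the positive cells of 19 of 19 sums. Lama3 averaged 79.9 ± 48.4 CPM in positive cells and 42.6 ± 34.6 CPM in negative cells (18 of 19 sums), and Lamb3 131 ± 48.8 and 90.5 ± 35.3 CPM (17 of 19). The log2 differences were 3.94 ± 0.33, 1.09 ± 0.26 and 0.46 ± 0.095, with adjusted p of 1.21e-07, 0.00705 and 0.00218 (edgeR, with the sum as a block). Each is an average of the 6 groups of matrix and day with equal weight, and Matrigel on day 5 had 1 pair (26 and 25 cells). The fitted value of Col17a1 is larger than its ratio within pairs, a median of 6.885 times over the 18 of 19 pairs that gave a ratio. The hemidesmosome integrin chain Itgb4 (0.78, adjusted p = 3.28e-05, edgeR) was higher in positive cells as well. The sums of 1 mouse are not separate animals, and the 3 calls held when each of the 4 mice was left out. When positive cells needed at least 2 Krt14 UMIs (20 sums), 4 of 9 members were called, all higher in positive cells. On counts thinned to 2000 UMIs per cell none of the 3 was called: Lama3 differed by 1.49 ± 0.70 and Lamb3 by 0.19 ± 0.21 (adjusted p = 0.35 and 0.762, unadjusted p = 0.0397 and 0.381, edgeR), and Col17a1 did not pass the filter on low counts.

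Col7a1 and Agrn, the members with a called matrix difference without the mouse term, were not called in the keratin split at 1 Krt14 UMI. Lama3 and Lamb3 were called in it and, with the block, between the matrices. Col7a1 averaged 14.2 ± 7.98 CPM in Krt14-positive cells and 10.9 ± 4.67 CPM in Krt14-negative cells (12 of 19 sums), and Agrn 27.3 ± 11.3 and 27.5 ± 10.7 CPM (8 of 19) (adjusted p = 0.386 and 0.365, edgeR). Lama5 was 29.9 CPM in both classes. Pooled over mice, Krt14-positive cells were 48.1%, 59.7% and 60.2% of collagen cells and 59.9%, 63.9% and 56.0% of Matrigel cells on days 0, 3 and 5. Among Krt14-positive cells alone the matrix difference of Col7a1 was 1.56 on day 0 and 1.55 on day 3 (log2, adjusted p = 0.00449 and 0.0368, edgeR), and 2.15 on day 5 (adjusted p = 0.0614, edgeR). Among Krt14-negative cells alone it was 0.38, 1.19 and 1.51 (adjusted p = 0.629, 0.486 and 0.558, edgeR). Whether the classes differ in this was not tested. Agrn on day 0 was 1.02 among Krt14-positive cells (adjusted p = 0.0139, edgeR) and 0.93 among Krt14-negative cells (adjusted p = 0.0569, edgeR).

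**Figure D4:**
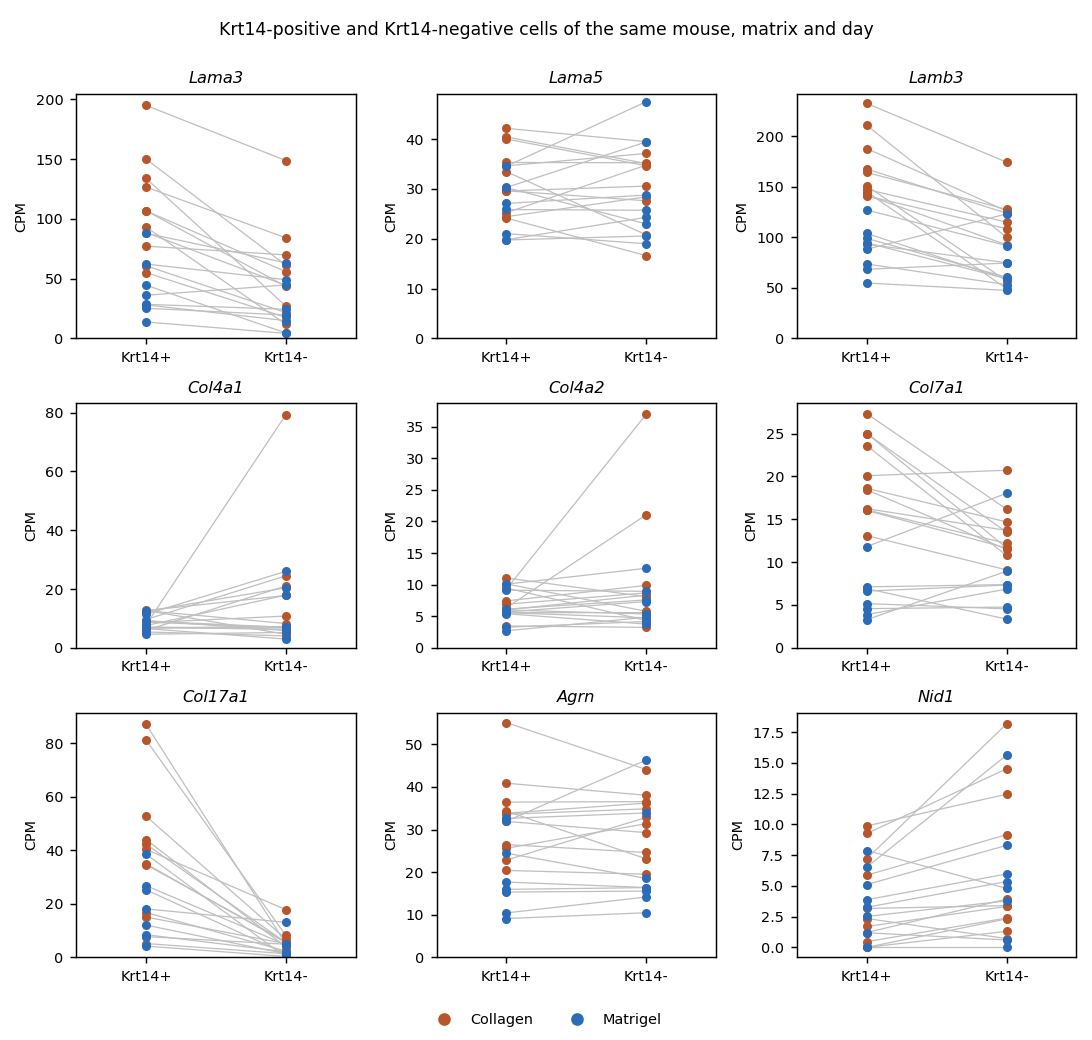
Level of each member in CPM (vertical axes, linear) in Krt14-positive cells, left, and Krt14-negative cells, right, of the same mouse, matrix and day, joined by lines, coloured by matrix (19 pairs). The lines of Col17a1 all run lower on the right, and those of Agrn and Lama5 run both ways.

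The share of cells with at least 1 UMI of a member, after thinning to 2000 UMIs, gave no difference that passed adjustment over 27 comparisons, of which 2 had an unadjusted p under 0.05 (smallest adjusted p = 0.386, exact two-sided permutation test over mice). The comparisons with the smallest p were Agrn on day 0, with 6.62% ± 1.18 of collagen cells and 2.62% ± 0.739 of Matrigel cells (SD, n = 4 mice each), and Lamb3 on day 3, with 22.6% ± 3.27 and 14.4% ± 4.56. Both reached the exact permutation minimum for 4 mice against 4, p = 0.0286, and on day 5 the smallest possible is 0.1. A single comparison at that minimum cannot pass adjustment over 27, so the lack of calls shows little. Col7a1 was detected in 4.55% ± 2.49 of collagen cells and 1.66% ± 1.20 of Matrigel cells on day 0. In the 193 macrophage-like cells of day 0, a type that should lack hemidesmosomal genes and that had a median of 13977 UMIs over all days, Lamb3 was detected in 0.585% of cells after the same thinning, far below the tumour shares of both matrices. Agrn was detected in 4.68% of them, between the shares of collagen and Matrigel tumour cells. Their summed level on day 0 was 16.3 CPM of Agrn (exact 95% Poisson interval 11.9 to 21.9, counting error only) and 2.90 CPM of Lamb3 (1.25 to 5.72), against 63.7 to 143 CPM of Lamb3 in the tumour sums of that day. The ratio of Agrn to Lamb3 counts thus differed between macrophage-like cells (45 and 8 counts) and every tumour sum of day 0. Whether the Agrn counts of macrophage-like cells are background was not tested.

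Other cells in the pools held the members in other proportions. In the 12 fibroblast-like cells of day 0 and the 62 of day 3, Col4a1 stood at 515 and 488 CPM, Col4a2 at 204 and 259 CPM and Nid1 at 149 and 143 CPM, and Col17a1 had 1 count in all. In the 4T1 line Lama3 stood at 1.11, 3.52 and 7.13 CPM and Lama5 at 47.6, 35.8 and 36.0 CPM on days 0, 3 and 5. Within the tumour cells, the Krt5-led cluster of 303 cells stood at 251.5 CPM of Col17a1, 46.0 of Col7a1, 57.4 of Agrn and 32.3 of Col4a1. These are cluster totals over all mice, with no test, since the same genes took part in the clustering.

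Of 29 further basement membrane genes, 20 passed the filter on low counts, and 1 of these 20 was called higher in collagen on each day and none lower: Fbln2, fibulin-2, a matrix glycoprotein that binds basement membrane proteins. It averaged 161 ± 26.7, 338 ± 77.7 and 445 ± 120 CPM in collagen and 80.8 ± 13.5, 118 ± 25.2 and 165 ± 60.3 CPM in Matrigel on days 0, 3 and 5 (SD, n = 4 and 4, 4 and 4, 3 and 2), and its groups did not overlap on any day. The log2 differences were 0.99 ± 0.22, 1.52 ± 0.22 and 1.44 ± 0.29 (adjusted p = 0.0114, 0.00318 and 0.0388, edgeR). This is 1 of 20 where 7.03%, 0.205% and 0.455% of all genes were called on days 0, 3 and 5. With the block 8 of 20 were higher on day 0, where 24.3% of all genes were called in either direction, among them Col18a1, Col4a5 and Lamb1, and 5 of 20 on day 3, where 4.37% were, among them Lamb1 and Lamc1. On day 5 there were 4 higher and 1 lower (Col4a6, a type IV collagen chain), where 6.28% of all genes were called. The list's median log2 difference was 0.63, 0.41 and 0.59, near those of the 9 members on days 0 and 3.

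Among 15 genes of hemidesmosomes and basement membrane receptors, Sdc4, a syndecan, was lower in collagen on day 0 (454 ± 48.5 CPM in collagen and 691 ± 57.2 CPM in Matrigel, log2 -0.61 ± 0.15, adjusted p = 0.023, edgeR). On day 3, 0 of 15 were called, with 3 at an unadjusted p under 0.05 (edgeR). On day 5, 3 of 15 were higher in collagen. Itga2, the alpha chain of a collagen-binding integrin, was at 112 ± 40.8 CPM in collagen (n = 3) and 14.8 ± 4.34 CPM in Matrigel (n = 2), a log2 difference of 2.94 ± 0.62 (adjusted p = 0.0414, edgeR). Itgav and Sdc1 differed by 1.11 ± 0.18 and 1.04 ± 0.22 (adjusted p = 0.011 and 0.0426, edgeR). Of 17 tested genes for collagen folding, crosslinking and export, Serpinh1, the collagen chaperone, and Loxl3, a lysyl oxidase relative, were higher in collagen on day 0 (1.05 ± 0.21 and 1.83 ± 0.31, adjusted p = 0.0061 and 0.00249, edgeR). P4ha1, a prolyl hydroxylase chain, was higher on day 3 (1.29 ± 0.22, adjusted p = 0.0159, edgeR), and 0 were called on day 5, with 7 at an unadjusted p under 0.05 (edgeR). Of 8 tested degrading enzymes, Mmp14, a membrane-bound metalloproteinase, was higher in collagen on day 0 (1.32 ± 0.37, adjusted p = 0.037, edgeR) and 0 were called on days 3 and 5, with 5 and 4 at an unadjusted p under 0.05 (edgeR). All of these calls were also made with the mouse as a block, and the block called more, to be read against the same shares of all genes. Of the 15 hemidesmosome and receptor genes it called 3 higher and 1 lower in collagen on day 0, 1 higher on day 3 (Sdc1, 0.66 ± 0.11, adjusted p = 0.00331, edgeR) and 5 higher on day 5. Of the 17 folding genes it called 4, 5 and 4 higher on days 0, 3 and 5, with Serpinh1, P4ha1 and other genes on each day. Of the 8 degrading enzymes it called 1 higher and 1 lower on day 0, 4 higher on day 3 and 2 higher on day 5. Mmp14 was higher on all 3 days with the block (1.40 ± 0.14, 1.44 ± 0.14 and 1.06 ± 0.20, adjusted p = 1.29e-05, 5.8e-05 and 0.00709, edgeR). Plau, the urokinase plasminogen activator, was lower in collagen on day 0 (-0.65 ± 0.19) and higher on days 3 and 5 (0.72 ± 0.20 and 1.92 ± 0.37), with adjusted p of 0.0186, 0.0472 and 0.007 (edgeR, with the block). No basal (4 genes) or luminal (5 genes) marker was called on any day without the mouse term, with 4, 1 and 1 of the 9 at an unadjusted p under 0.05 on days 0, 3 and 5 (edgeR). With the block on day 0 the basal regulator Trp63 was higher and the luminal markers Cdh1, Krt8 and Krt18 lower in collagen. The fitted difference was then positive for 2 of 4 basal and 0 of 5 luminal markers. Cdh1, which encodes E-cadherin, was also lower on days 3 and 5 with the block (-0.44 ± 0.11 and -0.70 ± 0.15, adjusted p = 0.0344 and 0.0129, edgeR). It was the only marker of both lists called on those days, with 2 and 3 of the 5 luminal markers positive.

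The genes nearest to each member over the 21 sums, by Pearson r of log2 CPM among genes averaging at least 20 CPM, are given as descriptions, since the sums share mice, pools and scaling. Nearest to Lama3 were Tnnt2 (r = 0.91), Lamb3 and Asprv1 (0.82), and near to Lamb3 were Lama3 and Cep170 (0.86). Nearest to Col7a1 were Nedd9 (0.90), Postn (0.87) and Pmepa1 (0.86), and to Col17a1 the basal keratin gene Krt5 (0.84), Ttc3 and Tagln (0.77 and 0.76). Nearest to Agrn were Gusb, Commd10 and Fundc2 (0.92, 0.90 and 0.90). The nearest genes of that level had r = 0.75 with Lama5, 0.75 with Nid1, 0.74 with Col4a1 and 0.72 with Col4a2. Among the members, Col7a1 had r = 0.68 with Lama3 and 0.66 with Lamb3, and 0.07 and 0.01 once group means were removed. In these sums, most of that correlation thus lay in the group means, which join matrix, day and pool. Whether the r values with and without group means differ was not tested.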

How the data were processed

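Tumour cells of 4 mice and the 4T1 line were measured by single-cell RNA sequencing, pooled by day and barcoded by condition (MULTI-seq) and run with 10x Genomics 3' v2 reagents, per the labels' protocols. Cell Ranger 3.0.2, Scanpy 1.4.4 and GRCm38/mm10 are named in the submitters' processing notes, with no role; the sources used here do not give the annotation release. The authors deposited a matrix of raw UMI counts, a whole number in each of the 39668312 gene and cell pairs it lists. The deposited annotation gives the mouse, matrix and day of each cell, its total count, its number of genes and its mitochondrial fraction, and all 3 measures matched the matrix in 7620 of 7620 cells. Cells had at least 270 genes and at most 9.99% mitochondrial counts. Between pools, 11 cell barcodes were shared. No per-sample column went unused (0 columns).

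The members and gene lists were chosen with earlier results of these data known. Leiden clustering (Scanpy 1.11.5, leidenalg 0.10.2) at resolution 1.0, on 15 neighbours over 30 components of the 2000 most variable genes of cells scaled to 10000 counts, found 24 clusters, which were named from marker lists. The names are rebuilt, 1030 cells in unnamed clusters were kept, and no doublet caller was run. Clusters of macrophage-like (227 cells), T and NK-like (29) and fibroblast-like cells (81) were removed, which left 6970 of 7307 mouse-labelled cells.

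UMI counts were summed over at least 20 cells and tested with edgeR 4.0.16 (R 4.3.3): TMM scaling, its expression filter (13184 genes), 1 quasi-likelihood fit of 6 groups (common dispersion 0.0853, prior degrees of freedom 3.93), Benjamini-Hochberg adjustment over all genes tested. CPM use the TMM-scaled total, and the SE is the log2 fold change over the root of F. The labels give the same 4 animals for both matrices and all days, so the mouse number pairs the sums. Deviations from group means correlated with a median of 0.304 between sums of the same mouse (0.0723 to 0.685) and -0.154 between mice, and each of the 21 sums was closest to its own mouse (21 of 21). Removal of group means by itself lowers the correlation between mice of a group. The value between mice and the match to the own mouse therefore have no neutral baseline here. Chi-square per degree of freedom between the 28 replicate pairs was 7.51 to 64.4, above sampling noise. DESeq2 1.42.0, other filters, scalings, cells and left-out mice were tried as alternatives. On counts simulated for the day 0 matrix difference over 13184 genes, 43 of 100 genes changed 2-fold and 99 of 100 changed 4-fold were recovered, with 5 false calls.

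All members were named in each comparison, and of the lists the called genes, at most 4 a list by smallest p. Some genes that this rule names are not reported here. Of 20605 gene identifiers, 20574 matched GENCODE vM21 (GRCm38), the source of gene positions. Exons of Lama3, Col4a1, Col4a2 and Nid1 overlap a gene on the other strand, and an exon of Col7a1 holds a microRNA gene. Shares of cells were computed after thinning to 2000 UMIs, which left out 84, 11 and 1 collagen cells and 138, 19 and 2 Matrigel cells on days 0, 3 and 5. Poisson intervals cover counting error only. Figures were drawn with matplotlib 3.10.9 (Python 3.11.15, NumPy 2.4.6, SciPy 1.17.1, pandas 2.3.3).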

Additional observations from a re-analysis of the deposited data

Results flagged for a closer look

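In 5 of 36 groups of 4 mice, 1 mouse stood apart from the other 3 by Dixon's test at its 95% critical value, which chance gives in about 1 of 20 groups. Mouse 3 in collagen on day 0 was low, at 10.9 CPM of Col7a1 and 20.1 CPM of Agrn. Mouse 4 was high, at 21.1 CPM of Col4a2 in collagen and 55.6 CPM of Lama3 in Matrigel on day 0, and at 7.36 CPM of Col7a1 in Matrigel on day 3. The Col4a2 value of mouse 4 was 6.04 CPM without the cells of the 4T1 cluster.

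The collagen over Matrigel difference changed between day 0 and day 5 in 3 members when the mouse was a block. The change was 1.98 in Lama3, 1.04 in Lamb3 and -0.93 in Agrn (log2, edgeR adjusted p = 0.0467, 0.0343 and 0.0093), so the Agrn difference was smaller on day 5 while those of the hemidesmosomal laminin chains were larger. Without the mouse term none of the 3 was called, and each call ended without at least 2 of the mice left out singly.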

How the results depend on the processing

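The fits differed in how many members they called. All-gene calls numbered 927, 27 and 60 without the mouse term and 3207, 576 and 828 with the replicate block in the matrix differences of days 0, 3 and 5, and over all settings they ran between 68 and 3212, 0 and 643, and 0 and 1146. On day 0, 2 members were called, and 1 with no filter on low counts, with only the 2 groups in the fit, with cells thinned to 2000 UMIs or without the Krt5-led cluster, and 0 among Krt14-negative cells. Leaving out 1 mouse gave 0 to 2, and 2 to 3 with the block. On day 3, 1 member was called, and 0 with only the 2 groups, thinned cells, no Krt5-led cluster or Krt14-negative cells, 2 by DESeq2, 3 with the block (also with sums of at least 10 cells or without unnamed clusters) and 4 with the block without the 4T1 cluster or the Krt5-led cluster. Leaving out 1 mouse gave 0 to 1, and 1 to 4 with the block. On day 5, 1 was called, and 0 with thinned cells or with Krt14-positive or Krt14-negative cells alone, 2 by DESeq2, and 3 with the block, alone and joined to each of the other choices of cells. Leaving out 1 mouse gave 0 to 1, and 0 to 3 with the block. Fits joined to the block by another choice, and those without the Krt5-led cluster, were chosen after seeing the data.

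In the change of the difference to day 3, 0 members were called, and 1 with the block without the 4T1 cluster or the Krt5-led cluster. In the change to day 5, 0 were called, 3 with the block (3 without unnamed clusters or the Krt5-led cluster, 2 without the 4T1 cluster, 1 with sums of at least 10 cells, 0 to 2 without 1 mouse). In collagen from day 0 to 3, 0 were called, 3 with the block (3 with 10 cells or without unnamed clusters, 4 without the Krt5-led cluster, 1 without the 4T1 cluster, 0 to 4 without 1 mouse), and from day 3 to 5, 0, or 1 with the block in each choice of cells but that without unnamed clusters (0 to 1 without 1 mouse). In Matrigel from day 0 to 3, 1 was called, 2 with the block without the 4T1 cluster, unnamed clusters or the Krt5-led cluster, and 1 to 4 without 1 mouse, and from day 3 to 5, 0, or 2 with the block in each choice of cells (0 to 2 without 1 mouse). In the Krt14 split 3 were called, 4 when positive cells needed at least 2 Krt14 UMIs, and 0 on thinned counts, where Col17a1 was not tested. The Col4a1 change in collagen from day 0 to 3, -1.19, became 0.25 without the 4T1 cluster and 0.16 when the block was added. No share of cells was called under any setting. With mice paired the smallest possible p of the exact permutation test was 0.125, and without 1 mouse it was 0.1. Those settings could give no call, so they show nothing about the shares.

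Thinning to 2000 UMIs leaves few counts per member, and day 5 has 2 Matrigel sums, so a call lost there shows little. When mouse 2 or 3 is left out, the lone Matrigel sum of day 5 is assumed to vary like the other groups.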
